A study of Mus musculus with 2 samples.

Results

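The genes described here encode subunits of potassium, sodium and calcium channels, of the TRPC, TRPM and TRPV cation channels, and of the Piezo mechanosensitive channels. They were chosen by name alone, as every gene of the deposited count table with a Kcn, Scn, Cacn, Trpc, Trpm, Trpv or Piezo symbol of the usual form. This gave 131 genes of 17260, with 1 further match left out and not analysed here. Of the 131, 78 were potassium channel genes, 12 sodium channel genes, 21 calcium channel genes, 18 TRP genes and 2 Piezo genes. The rule used symbols only, but it was set with earlier results of these data known.

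RNA was sequenced from mouse embryonic fibroblasts, cultured connective tissue cells taken from embryos at day 13.5, in 1 library from C57BL/6 cells labelled Ahi1-/- and 1 library from wild-type (WT) C57BL/6 cells. Ahi1 encodes a protein at the base of the primary cilium. Both cultures grew in DMEM medium supplied with 10% serum, and each library was built from 1 ug of total RNA. The sources used here give neither the number of embryos behind a culture, nor its passage, nor the exons of Ahi1 that were targeted. With 1 library per genotype the differences have no replicate check and no test, and they compare these libraries and not the genotypes.

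Ion channels set the voltage across the cell membrane and let calcium in. Pore-forming subunits make the conducting path, and accessory subunits change how the pore opens, closes and reaches the surface. Neurons and muscle use sodium and calcium channels to fire. Fibroblasts do not fire action potentials as a rule, but potassium channels set their resting voltage, and TRP and Piezo channels pass calcium when the membrane is stretched or receptors are stimulated.

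The library labelled Ahi1-/- held 20820678 rounded counts and the WT library 19067462. Ahi1 itself had 370 counts in the library labelled Ahi1-/- and 410 in WT (log2 ratio -0.16, 95% counting interval -0.37 to 0.05). Its level therefore gave no check of the labels, and directions follow the labels and the column heads. The cultures also differed in marker genes of cell types. All 10 contractile and smooth muscle markers were at least 2-fold higher, with a summed level of 9800 TPM (a deposited level corrected for gene length and depth) in the library labelled Ahi1-/- and 410 TPM in WT. Fibroblast markers summed to 21500 and 8080 TPM in the same order, with 8 of 10 higher and none at 0 in either library. All 9 chondrocyte markers were measured and 8 were lower, at 60.0 TPM in the library labelled Ahi1-/- and 1060 TPM in WT. Red blood cell markers summed to 21.0 and 1370 TPM, with 6 of 8 lower and Hba-a2 at 0 in the library labelled Ahi1-/-. Neuronal markers summed to 126 TPM in the library labelled Ahi1-/- and 27.7 TPM in WT, with 4 of 12 higher, Dcx at 0 in the library labelled Ahi1-/- and Rbfox3, Elavl4 and Nefm at 0 in WT. Their sum came mostly from Tubb3, Gap43 and Stmn2, while Rbfox3, Snap25, Elavl3 and Nefl had at most 3 counts in either library and Syt1 had 5 in the library labelled Ahi1-/- and 2 in WT. Skeletal and cardiac muscle markers summed to 4.46 and 12.2 TPM, with Myh6 at 0 in the library labelled Ahi1-/- and Myh3, Myh7 and Ckm at 0 in WT. Most of this WT sum was Tnnt2 (2.24 TPM in the library labelled Ahi1-/- and 11.88 TPM in WT). The median log2 ratio of the 3 markers of this list with at least 10 counts summed was 0.54. Endothelial markers summed to 1.65 and 2.44 TPM, with Tie1 at 0 in the library labelled Ahi1-/-, and leukocyte markers to 50.4 and 26.7 TPM. The difference between the leukocyte sums came mostly from Lyz2 (34.20 and 10.21 TPM), and the median log2 ratio of the 8 leukocyte markers was -0.17. Glial and Schwann cell markers summed to 9.97 and 7.06 TPM, with Sox10 and Foxd3 at 0 in WT, and epithelial markers to 39.8 and 16.2 TPM, with Krt5 and Cldn4 at 0 in WT. The part of these cell types in the channel results was not tested. In bulk RNA, fewer cells that express a gene and less RNA per cell cannot be told apart.

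Channel genes were on the whole scarce transcripts, and more of them were higher than lower in the library labelled Ahi1-/-. The 131 genes summed to 658 TPM there and 438 TPM in WT, which is 0.0658% and 0.0438% of all transcripts. Their median level was 0.290 TPM in the library labelled Ahi1-/- and 0.140 TPM in WT, against medians over all genes of 11 and 10.1 TPM. In the library labelled Ahi1-/-, 47 of them reached 1 TPM, against 30 in WT, and 6 had no count, against 25 in WT. A minimum of 50 counts in whichever library was higher was met by 44 of them, of which 22 (50%) were at least 2-fold higher, where 16.0% of all genes with that minimum were. A further 6 (13.6%) were at least 2-fold lower, where 10.3% of all genes were, and 16 lay within 2-fold. Since low genes were more often apart, the 32 channel genes with 50 to 500 counts were also read against all genes in that range. Of these, 18 (56.2%) were higher, against 25.1% of all genes in the range, and 4 (12.5%) lower, against 11.9%. The share lower was thus near the background in both readings.

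Ratios are scaled counts, with the library labelled Ahi1-/- divided by WT, and their median on the log2 scale was 1.21 over the 88 channel genes whose counts summed to 10 or more, and -0.01 over the 14485 genes of the table with that minimum. Of the 88, 63 lay above 0 and 25 below. The median was smaller among the better counted members, at 0.66 over the 40 with at least 100 counts summed, where it was -0.06 over all genes. Genes with 10 to 500 counts summed leaned upward in the table as a whole. Their median was 0.26 over all 5390 such genes and 1.55 over the 74 channel genes among them. Of the 22 higher genes, 15 were under 1 TPM in WT and all were under 10 TPM there. A second deposited table of FPKM values, which lists 3872 genes, holds 41 of the channel genes, with 34 higher and 7 lower in the library labelled Ahi1-/-. Among them are all 28 that were at least 2-fold apart and none of the 16 that lay within 2-fold. Its genes thus appear to have been selected by their difference between these same libraries, and it gives no separate check of the calls. The split of all 3872 genes by direction is not given here.

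**Figure D1:**
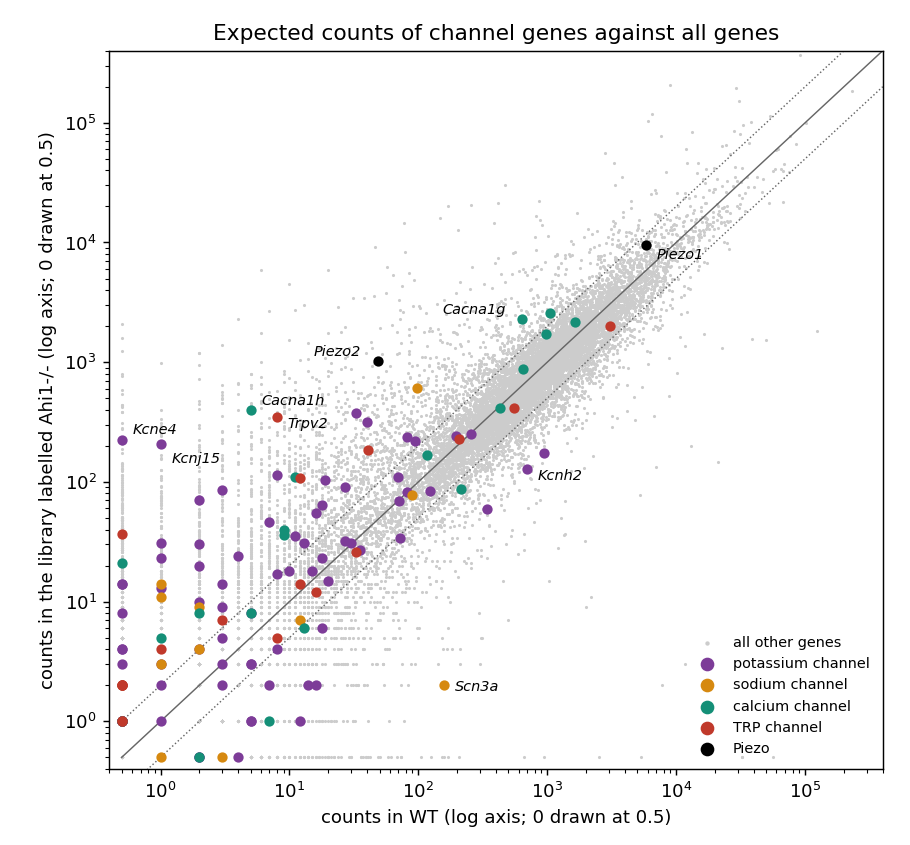
Rounded counts of each gene in the library labelled Ahi1-/- (vertical, log axis) and in WT (horizontal, log axis), 1 library each, with zeros drawn at 0.5. Grey points are all other genes, coloured points are the 131 channel genes by family, the solid line marks equal counts and the dotted lines a 2-fold difference in counts; Kcne4, Kcnj15, Cacna1h, Trpv2 and Piezo2 stand above the lines and Scn3a and Kcnh2 below them.

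The channel transcripts of both libraries were dominated by a few genes. Piezo1, Cacnb3 and Cacng7 held 48.4% of the summed channel TPM in the library labelled Ahi1-/-, and Piezo1, Cacnb3 and Trpm7 held 47.1% in WT. Accessory subunits of calcium channels were the class with the highest sum in both, at 198 TPM in the library labelled Ahi1-/- and 130 TPM in WT, followed by the Piezo genes at 160 and 92.7 TPM. Potassium channel genes were the most numerous, but they summed to only 109 TPM in the library labelled Ahi1-/- and 110 TPM in WT. Their share of channel transcripts was 16.5% in the library labelled Ahi1-/- and 25.1% in WT. Of the 23 potassium channel genes with the count minimum, 13 were higher and 4 lower, where 16.0% and 10.3% of all genes with that minimum were. The 4 lower genes include the 3 potassium channel genes with the highest TPM in WT, namely Kcnab2, Kcnh2 and Kcnn4. TRPM channels made up 6.54% of channel transcripts in the library labelled Ahi1-/- and 14.1% in WT, while TRPV channels made up 3.16% and 0.427%.

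**Figure D2:**
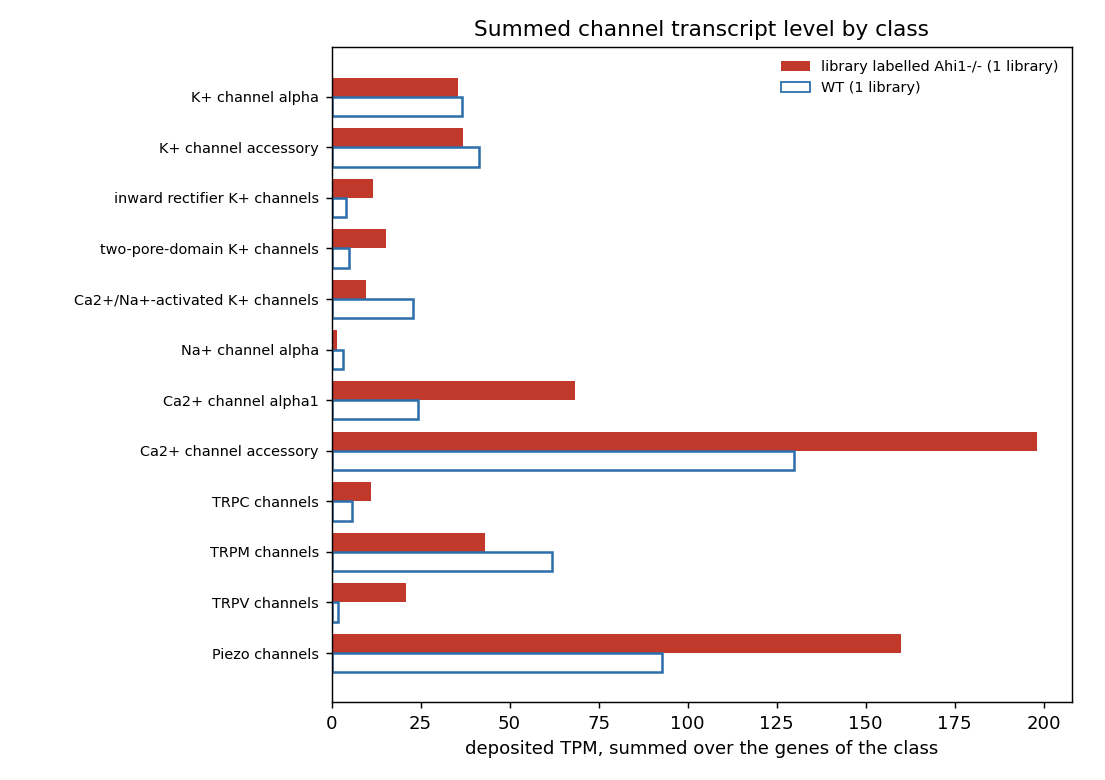
Deposited TPM summed over the genes of each of 12 channel classes, without the sodium channel beta subunits (horizontal axis, from 0), with the library labelled Ahi1-/- above WT in each pair of bars and 1 library each. Calcium channel accessory subunits (198 and 130 TPM) and Piezo channels (160 and 92.7 TPM) are the longest pairs of bars, and potassium channel classes are low in both libraries.

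Voltage-gated potassium channel alpha subunits form tetrameric pores that open on depolarisation and pull the membrane back towards rest. Of 34 such genes in the table, 23 were measured, 17 of them above 0 and 6 below, with a median log2 ratio of 1.24. Only 6 reached the minimum of 50 counts, of which 3 were higher and 2 lower. Such counts, in this and the following classes, stand against the 16.0% higher and 10.3% lower of all genes with that minimum. Kcnh2 encodes the ERG channel that repolarises heart muscle. It had 128 counts (3.53 TPM) in the library labelled Ahi1-/- and 698 counts (22.87 TPM) in WT, 5.50-fold lower (log2 -2.46, interval -2.74 to -2.19). It was the potassium channel alpha subunit with the highest level in WT, whereas Kcnh6, an ERG channel of the same subfamily, was the highest in the library labelled Ahi1-/-, closely followed by Kcnd1. Kcnh6 had 241 counts (7.02 TPM) there and 197 (5.50 TPM) in WT, a log2 ratio of 0.28 (0.00 to 0.56). Kcnq5, a subunit of the slow M current that damps excitability in neurons, had 376 and 33 counts (6.27 and 0.52 TPM, 11.3-fold higher). Kcnd1, a pore of the rapidly inactivating A-type current, had 236 and 81 counts (6.85 and 2.30 TPM, 2.89-fold higher). Kcnf1, which encodes a modifier subunit that forms no channel alone, had 34 and 72 counts (0.78 and 1.62 TPM). It was 2.14-fold lower, just past the limit, and its interval of -1.73 to -0.49 includes log2 ratios within 2-fold. Another 28 genes of the class had at most 46 counts in the library labelled Ahi1-/- and 30 in WT, and 17 of these were measured, at log2 ratios of -2.82 to 4.94.

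Accessory subunits of potassium channels include the cytoplasmic beta subunits, the single-span KCNE proteins and the calcium-binding KChIPs. Among 9 measured genes of 13, 4 lay above 0 and 5 below, and the median log2 ratio was -0.03 (0.02 with upper-quartile scaling), the second lowest of the 13 classes. This near balance joins large differences in both directions. Kcne4, which encodes a KCNE protein that inhibits several voltage-gated pores, had 225 counts (10.00 TPM) in the library labelled Ahi1-/- and none in WT. Set against a floor of 3 counts, it was 74.3-fold higher, and the lower limit of its counting interval was 60.0-fold (log2 ratio 5.91). The beta subunit genes Kcnab1 and Kcnab2, whose products bind the same Shaker-type pores, went opposite ways. Kcnab1 had 314 counts (9.66 TPM) in the library labelled Ahi1-/- and 40 (1.37 TPM) in WT, 7.78-fold higher (log2 2.96, 2.48 to 3.47). Kcnab2 had 175 counts (5.07 TPM) and 948 (28.73 TPM), 5.47-fold lower (log2 -2.45, -2.69 to -2.22). The beta subunit with the higher level was therefore Kcnab1 in the library labelled Ahi1-/- and Kcnab2 in WT. The third, Kcnab3, had 69 and 71 counts and a log2 ratio of -0.05 (-0.55 to 0.44). The KChIP genes Kcnip3 (84 and 124 counts) and Kcnip4 (251 and 254 counts) also lay within 2-fold.

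Inward rectifiers pass potassium most easily near the resting voltage and hold it there. Kcnj2, the classical strong inward rectifier, had 219 counts (4.44 TPM) in the library labelled Ahi1-/- and 94 (1.85 TPM) in WT, 2.31-fold higher (log2 1.21, 0.85 to 1.57). Kcnj15, a rectifier best known from kidney, had 209 counts (4.76 TPM) and 1 (0.03 TPM), a log2 ratio of 7.69 with an interval of 5.20 to 13.00. That single WT count leaves the size of the difference loosely bounded, although the lower limit is far above 2-fold. These were the 2 genes of the class with at least 50 counts. The next gene along the chromosome from Kcnj15 on this list is Kcnj6, the pore of G protein-gated channels, within 1000000 bases of it on chromosome 16. Kcnj6 had 30 counts in the library labelled Ahi1-/- and 2 in WT (log2 3.89, 1.92 to 7.0). Of the 11 members other than Kcnj2 and Kcnj15, 6 had at most 3 counts in both libraries.

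Genes of the two-pore-domain potassium channels, which carry the steady leak current, were the potassium channel class in which every measured member lay above 0. The 7 measured genes of 11 had a median log2 ratio of 1.82, and 4 of the 5 with the count minimum were higher. Kcnk2, a leak channel opened by stretch and lipids, had 104 counts (3.40 TPM) in the library labelled Ahi1-/- and 19 (0.66 TPM) in WT, 5.43-fold higher (log2 2.44, 1.72 to 3.23). Its close relative Kcnk10 had 86 and 3 counts (log2 4.83, 3.23 to 7.13). The deposited TPM of Kcnk10, at 1.3 and 0.16, gave a smaller log2 ratio of 3.02. Kcnk3, an acid-sensitive leak channel, had 64 and 18 counts (1.86 and 0.51 TPM, 3.52-fold higher), and Kcnk12, of the halothane-inhibited group, had 70 and 2 counts (4.02 and 0.11 TPM, log2 5.12, 3.21 to 8.19). Kcnk6 lay within 2-fold, with 109 and 70 counts (2.96 and 1.84 TPM). Summed over the class, the leak channels came to 15.4 TPM in the library labelled Ahi1-/- and 4.96 TPM in WT.

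Potassium channels opened by internal calcium link calcium entry to the membrane voltage. Their summed level was 9.62 TPM in the library labelled Ahi1-/- and 22.9 TPM in WT. This order was set by Kcnn4, the intermediate-conductance channel of red blood cells, lymphocytes and proliferating fibroblasts. Kcnn4 had 59 counts (3.22 TPM) in the library labelled Ahi1-/- and 342 (18.81 TPM) in WT, 5.85-fold lower (log2 -2.55, -2.97 to -2.15). The small-conductance channel Kcnn3 went the other way, with 90 and 27 counts (1.3 and 0.38 TPM, 3.30-fold higher). So did Kcnma1, the pore of the large-conductance BK channel of smooth muscle, with 55 and 16 counts (0.92 and 0.32 TPM, 3.41-fold higher, log2 1.77, 0.94 to 2.67). Kcnn1, a small-conductance channel of neurons, was nearly equal at 83 and 81 counts (3.16 and 2.95 TPM). Of the 8 red blood cell markers, 6 were lower as well, among them Hba-a1 (78 and 5284 counts) and Slc4a1 (5 and 313 counts). The part of red blood cells in the lower Kcnn4 was not tested.

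The promoters of potassium channel genes at both ends of the ratios are shown so that their CpG content can be compared, since promoters rich in CpG are typical of widely active genes. They are the 250 bases before the RefSeq start site (GRCm38.p6) of the 2 highest and the 2 lowest genes of the 28 that had a single start site in the table used, and capitals mark CpG sites, all letters running 5′ to 3′ along the gene's strand. The first 2 belong to genes higher in the library labelled Ahi1-/- and the last 2 to genes lower there. Kcne4 lies on the plus strand (chr1:78816661-78816910), Kcnj15 on the plus strand (chr16:95257308-95257557), Kcnh2 on the minus strand (chr5:24329592-24329841) and Kcnn4 on the plus strand (chr7:24370013-24370262).
Kcne4: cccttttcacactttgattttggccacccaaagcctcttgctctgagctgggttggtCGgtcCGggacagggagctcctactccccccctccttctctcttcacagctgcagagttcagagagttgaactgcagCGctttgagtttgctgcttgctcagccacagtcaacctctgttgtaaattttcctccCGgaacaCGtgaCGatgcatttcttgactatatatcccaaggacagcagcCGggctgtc
Kcnj15: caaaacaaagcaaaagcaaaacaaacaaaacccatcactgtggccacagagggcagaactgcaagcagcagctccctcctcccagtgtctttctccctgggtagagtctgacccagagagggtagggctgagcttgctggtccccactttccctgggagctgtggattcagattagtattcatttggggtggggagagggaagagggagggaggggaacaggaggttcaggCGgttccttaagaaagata
Kcnh2: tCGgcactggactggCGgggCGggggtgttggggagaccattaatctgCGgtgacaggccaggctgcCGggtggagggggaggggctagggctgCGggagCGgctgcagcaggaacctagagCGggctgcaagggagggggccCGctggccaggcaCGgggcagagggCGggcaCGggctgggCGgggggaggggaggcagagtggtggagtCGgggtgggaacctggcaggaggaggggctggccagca
Kcnn4: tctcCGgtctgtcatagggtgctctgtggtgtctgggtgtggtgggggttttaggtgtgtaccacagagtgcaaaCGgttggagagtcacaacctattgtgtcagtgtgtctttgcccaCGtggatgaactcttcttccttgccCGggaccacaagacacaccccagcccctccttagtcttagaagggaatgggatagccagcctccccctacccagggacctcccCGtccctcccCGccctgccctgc
Kcne4 had 7 CpG sites in this window, Kcnj15 had 1, Kcnh2 had 14 and Kcnn4 had 6. Among the 15 higher channel genes with a promoter in the table, the median was 7 sites (range 1 to 31), and 46.7% held at least 10. Among the 5 lower ones it was 14 (1 to 30), with 60.0% at 10 or more, and among 12 within 2-fold it was 13.5 (2 to 36), with 58.3%. Of 9666 genes of any kind with at least 50 counts and a promoter in the table, 76.2% held at least 10, with a median of 16.0. Where a gene had several start sites, the first listed was used. The ranges of the 3 groups of channel genes overlapped almost fully, and CpG content was not tested against the ratios.

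Sodium channels carry the upstroke of the action potential in nerve and muscle, and their alpha subunits were close to absent from both libraries, at 1.49 TPM summed in the library labelled Ahi1-/- and 3.18 TPM in WT. Scn3a, an alpha subunit of the embryonic nervous system, had 2 counts (0.03 TPM) in the library labelled Ahi1-/- and 159 (1.92 TPM) in WT. Its log2 ratio of -6.33 (-9.38 to -4.45) was the lowest of all measured channel genes. Scn2a, its neighbour on chromosome 2 and an alpha subunit of central neurons, had 78 and 90 counts (0.97 and 1.1 TPM, log2 -0.22, -0.68 to 0.23). The same cluster holds Scn1a (9 and 2 counts), Scn9a (2 and 0 counts) and Scn7a (14 and 1 counts). The difference at Scn3a was not seen at Scn2a, the only one of these neighbours with at least 50 counts. Among the beta subunits, which are single-span proteins that also act in cell adhesion, Scn2b had 7 and 12 counts and Scn3b 11 and 1.

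Voltage-gated calcium channels couple depolarisation to calcium entry, and those of the L, N and P/Q types join an alpha1 pore with a beta and an alpha2delta subunit. The alpha1 genes summed to 68.4 TPM in the library labelled Ahi1-/- and 24.4 TPM in WT, and 4 of the 5 with the count minimum were higher. Cacna1c, the L-type pore of heart and smooth muscle, had 2591 counts (22.85 TPM) in the library labelled Ahi1-/- and 1059 (9.35 TPM) in WT, 2.42-fold higher (log2 1.28, 1.17 to 1.38). Cacna1g, a T-type pore that opens near the resting voltage, had 2291 counts (32.94 TPM) and 632 (8.90 TPM), 3.59-fold higher (log2 1.85, 1.72 to 1.97). These are well counted genes, and the intervals of both lie beyond 2-fold. Cacna1h, the second T-type pore, had 397 counts (5.28 TPM) and 5 (0.07 TPM), 78.7-fold higher (log2 6.30, 5.06 to 7.93). It lies on chromosome 17, where the median log2 ratio of measured genes was -0.30. Cacna1b, the N-type pore of nerve endings, had 109 counts (1.46 TPM) and 11 (0.15 TPM), 9.82-fold higher. Cacna1a, the P/Q-type pore of neurons, had 418 and 427 counts (5.71 and 5.66 TPM) and a log2 ratio of -0.04 (-0.24 to 0.15). All 10 contractile markers were higher in the same library, among them Cnn1 with 5879 and 20 counts and Myh11 with 1466 and 43 counts, and their part in the higher Cacna1c, Cacna1g and Kcnma1 was not tested.

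The accessory subunits of calcium channels differed less than the pores. None of the 5 with the count minimum was at least 2-fold higher and 1 was lower, although 8 of 9 measured genes lay above 0 (median log2 ratio 0.81). Cacnb3, the main beta subunit of these cells, had 2152 counts (90.71 TPM) in the library labelled Ahi1-/- and 1650 (67.64 TPM) in WT, 1.29-fold higher (log2 0.37, 0.28 to 0.46). Cacnb2, the beta subunit best known from heart, had 88 counts (2.16 TPM) and 215 (5.06 TPM), 2.47-fold lower (log2 -1.30, -1.68 to -0.94). Cacnb1 had 169 and 116 counts (7.81 and 5.07 TPM, log2 0.53). The alpha2delta subunit Cacna2d1, the binding site of gabapentin, had 877 and 653 counts (15.76 and 10.41 TPM, log2 0.41, 0.26 to 0.56). Cacna2d3 had 21 counts and none, which is under the minimum of 50. Its ratio to the floor was 6.94, and 5.16 at the lower limit of its counting interval. Cacng7, of the gamma family that includes regulators of glutamate receptors, is known mainly from brain and was among the most abundant channel transcripts, with 1731 counts (78.18 TPM) in the library labelled Ahi1-/- and 977 (41.43 TPM) in WT. Its 1.76-fold difference (log2 0.81, 0.70 to 0.93) stayed within the 2-fold limit. Cacng8, beside it on chromosome 7, had 40 and 9 counts (2.12 and 0.46 TPM, log2 2.14, 1.07 to 3.37).

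**Figure D3:**
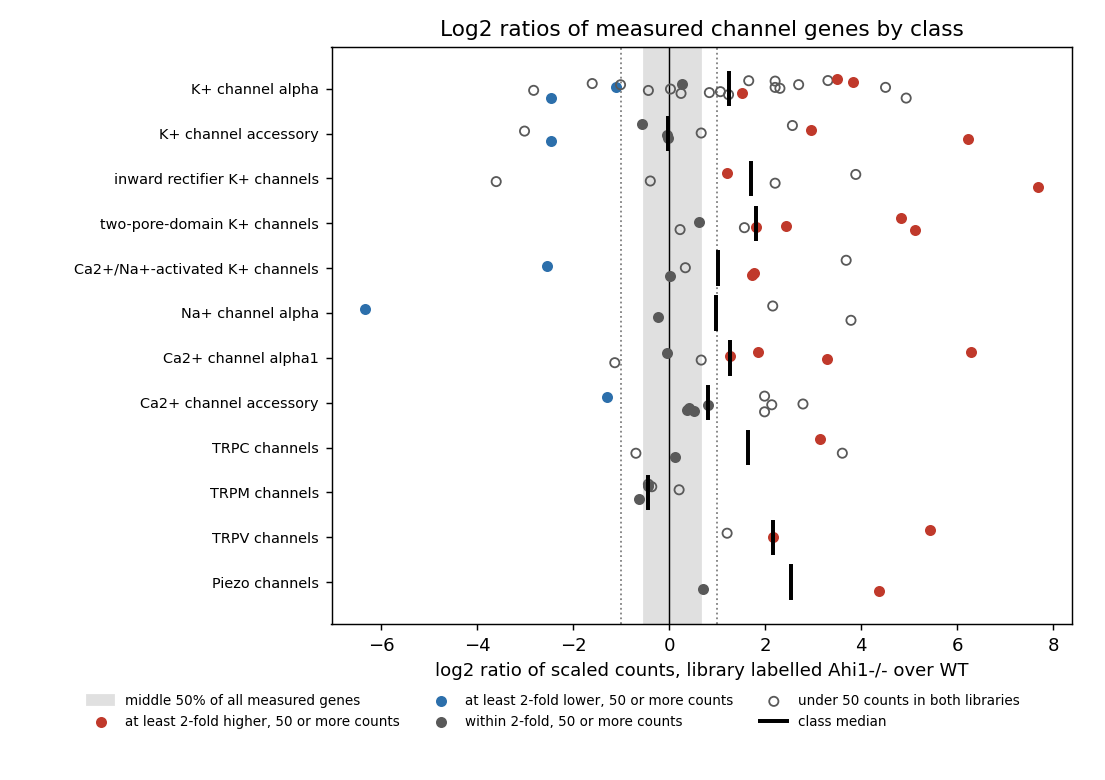
Log2 ratio of scaled counts, library labelled Ahi1-/- over WT (horizontal axis), of 85 measured channel genes in 12 classes, the sodium channel beta subunits not being drawn. Each point is a gene, black bars are class medians, the grey band holds the middle 50% of all measured genes (-0.52 to 0.67) and dotted lines mark 2-fold; most class medians lie right of the band, and the TRPM genes and potassium channel accessory subunits have theirs inside it.

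Of the 6 TRP channel genes with the count minimum, both TRPV genes and 1 of 2 TRPC genes were higher, and both TRPM genes lay within 2-fold. Trpv2, a cation channel linked to stretch and to growth factor signals, had 350 counts (13.92 TPM) in the library labelled Ahi1-/- and 8 (0.36 TPM) in WT, 43.4-fold higher (log2 5.44, 4.44 to 6.66). Trpv4, which opens on cell swelling and is a calcium channel of cartilage and lung fibroblasts, had 185 counts (6.49 TPM) and 41 (1.41 TPM), 4.47-fold higher (log2 2.16, 1.67 to 2.69). Chondrocyte markers summed to 60.0 TPM in the library labelled Ahi1-/- and 1060 TPM in WT, and their part in the level of Trpv4 was not tested. The other 4 TRPV genes had at most 7 counts in either library. In the TRPC subfamily, whose pores open downstream of phospholipase C, Trpc6 had 107 counts (3.79 TPM) and 12 (0.42 TPM), 8.84-fold higher (log2 3.14, 2.28 to 4.14). Trpc1, the most abundant TRPC gene, differed by less, at 227 and 205 counts (5.94 and 5.37 TPM, log2 0.13, -0.14 to 0.41). Of the TRPM genes, Trpm7, a channel fused to a kinase that carries magnesium, had 2012 counts (31.08 TPM) in the library labelled Ahi1-/- and 3088 (46.58 TPM) in WT, 1.55-fold lower (log2 -0.63, -0.71 to -0.55). Trpm4, a calcium-activated channel for sodium and potassium, had 413 and 557 counts (10.90 and 14.25 TPM, 1.36-fold lower). The class median of -0.43 was the lowest of the 13.

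Piezo channels open directly when the membrane is stretched. Piezo1, the isoform of most non-neuronal cells, was the most abundant of all 131 genes in both libraries, with 9528 counts (149.38 TPM) in the library labelled Ahi1-/- and 5811 (92.23 TPM) in WT. It was 1.63-fold higher (log2 0.70, 0.65 to 0.75), within the 2-fold limit. Piezo1 lies on chromosome 8, where the median log2 ratio of measured genes was -0.36, and with that median subtracted its ratio was 1.06. The mouse annotation GENCODE M21 shares 24.6% of its exonic bases with Ctu2 on the opposite strand, which had 342 and 412 counts (18.13 and 20.91 TPM), and the sources used here do not say whether counting used strand. Piezo2, the touch receptor of sensory neurons and Merkel cells, had 1022 counts (10.45 TPM) in the library labelled Ahi1-/- and 49 (0.48 TPM) in WT, 20.7-fold higher (log2 4.37, 3.96 to 4.81). Even so, Piezo2 remained far below Piezo1 in TPM in both libraries.

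**Figure D4:**
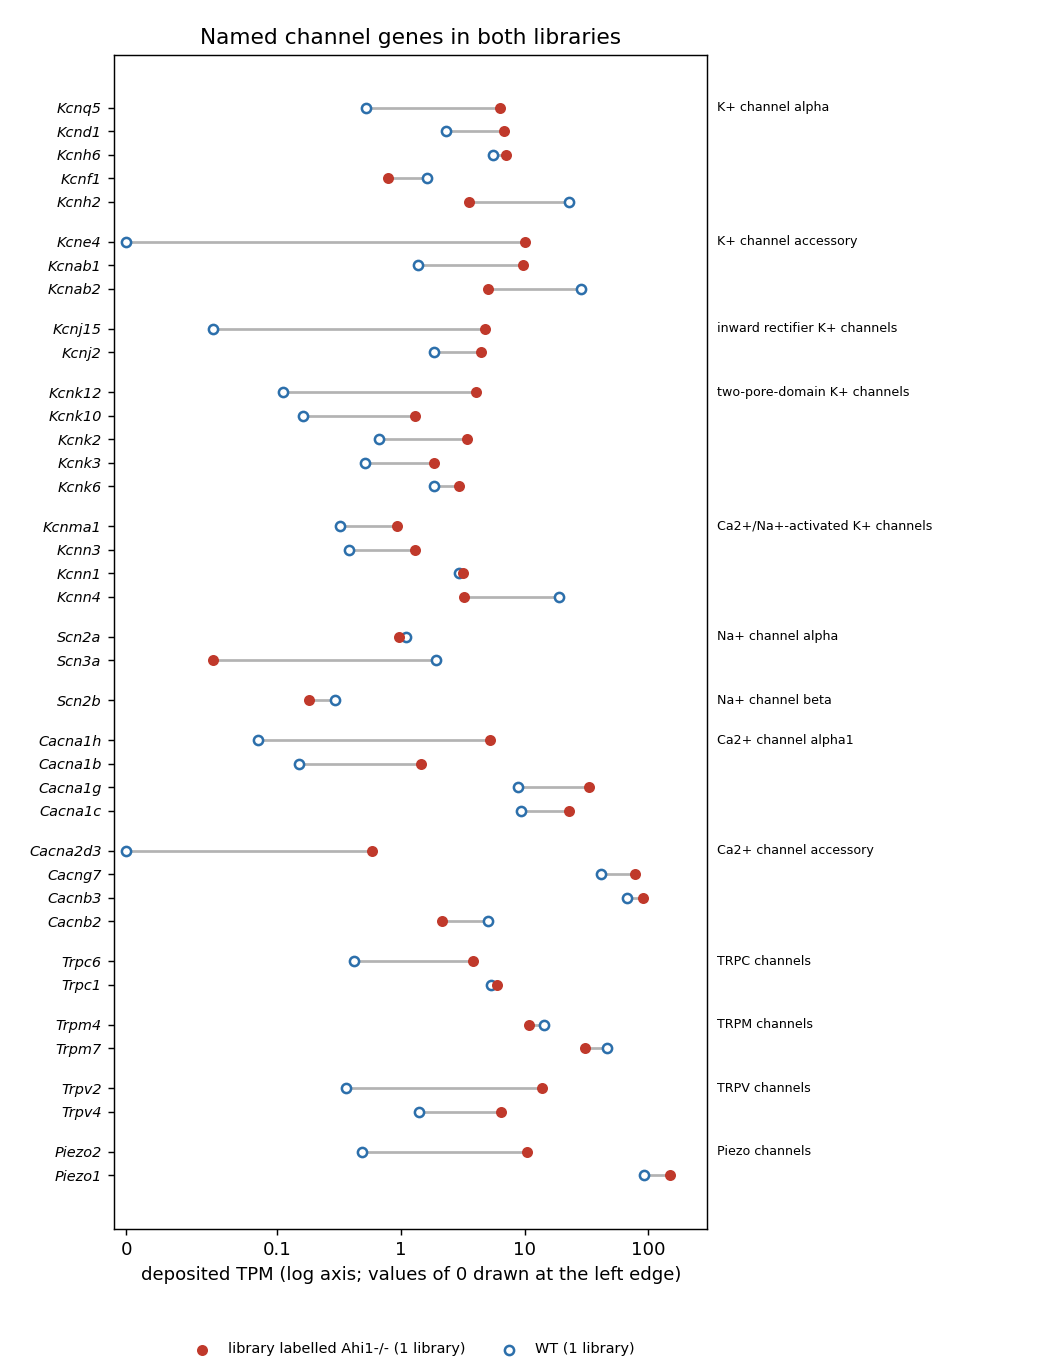
Deposited TPM (log axis) of 38 named channel genes in the library labelled Ahi1-/- (filled red) and in WT (open blue), 1 library each, grouped by class, with values of 0 drawn at the left edge. The line joins both values of a gene; Kcne4 (10.00 and 0.00 TPM), Kcnj15 (4.76 and 0.03 TPM) and Cacna1h (5.28 and 0.07 TPM) span the longest distances upward and Scn3a (0.03 and 1.92 TPM) downward.

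Most of the list lay below the depth at which a 2-fold difference was counted. Of the 131 genes, 87 had fewer than 50 counts in both libraries, 44 of these were measured, and 32 of those lay above 0 and 12 below. The same split over all genes at this depth is not given here, and scarce genes leaned upward in the whole table. For 28 genes neither library exceeded 3 counts, so no ratio is given, and a difference was not detectable at this depth. Counting intervals cover counting error only.

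Other membrane transport genes were read beside the channel subunits, and their counts stand against the 16.0% higher and 10.3% lower of all genes with the count minimum. Of 30 other cation channel genes, 14 had the count minimum, with 2 higher and 0 lower and a median of 0.23 on the log2 scale. The lysosomal channel Tpcn2 had 477 counts in the library labelled Ahi1-/- and 202 in WT (2.34-fold higher), and the proton channel Hvcn1 had 56 and 6 (9.25-fold higher). Of 12 genes of intracellular calcium release and store-operated entry, 9 had the minimum, and 1 was higher, the IP3 receptor Itpr1 (838 and 368 counts, 2.26-fold), with a median of 0.61. Chloride and volume channels had 3 of 14 higher and 1 lower (median 0.43). They were the scramblase and channel Ano6 (4142 and 1687 counts, 2.43-fold higher), the endosomal transporter gene Clcn4 (1531 and 594, 2.55-fold higher), Lrrc8d of the volume-regulated channel (649 and 310, 2.07-fold higher) and Clcn3 (403 and 1282, 3.21-fold lower). Among ion pumps and calcium transporters, 2 of 13 were higher and 2 lower (median -0.01). The counts of called genes in these 4 lists lie within 2 genes of what those shares over all genes would give. Slc8a1, the sodium-calcium exchanger of heart and smooth muscle, had 470 counts and 2 (log2 7.86, 6.00 to 10.91), and the plasma membrane calcium pump Atp2b4 had 2916 and 1336 (2.16-fold higher). The sodium pump subunit Atp1b2 had 22 and 55 counts (2.52-fold lower), and the calcium pump Atp2a3 had 47 and 109 (2.34-fold lower).

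Partners and regulators of channels had 7 of 20 genes with the count minimum higher and 3 lower, where 16.0% of all genes with the minimum were higher and 10.3% lower, and their median on the log2 scale was 0.38. The count of lower genes thus lies near the background. These 3 genes were Rrad (142 counts in the library labelled Ahi1-/- and 308 in WT), Gem (131 and 327) and Stac2 (357 and 1130). Jph2, which tethers the plasma membrane to calcium stores beside L-type channels in muscle, had 988 counts in the library labelled Ahi1-/- and 1 in WT (log2 9.94, 7.45 to 15.24). Its relative Jph1 had 84 and 1 (log2 6.38, 3.86 to 11.70). Rem1, a small GTPase that inhibits voltage-gated calcium channels, had 76 and 1 (log2 6.24, 3.71 to 11.56). Fgf13, an intracellular protein that binds sodium channels, had 176 counts and none. It was 58.1-fold higher against the floor, and the lower limit of its counting interval was a log2 ratio of 5.55. Jph2, Jph1, Rem1 and Fgf13 were higher in the same library as Cacna1c and Cacna1g, with ratios loosely bounded by their WT counts of 0 or 1.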

How the data were processed

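A first table deposited by the authors holds expected counts, estimated per gene and not normalized, and length-normalised TPM values for 17260 genes, and a second holds FPKM values for 3872 genes, per the file headers. Tools in the submitters' processing notes are RSEM 1.2.12, Bowtie2 2.2.5 and HISAT2 2.0.4, with build mm8 and without roles. Annotation and strand use are not stated. The columns CON and EXP were read as WT and Ahi1-/-, so every direction rests on that reading.

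Expected counts were rounded to whole numbers and scaled with TMM (edgeR 4.0.16 in R 4.3.3). Ratios carry exact 95% Clopper-Pearson intervals on the share of both counts (Python 3.11.15, scipy 1.17.1). For a count of 0 the floor was 3 counts per library (0.150 CPM in the library labelled Ahi1-/-, 0.151 CPM in WT), and no ratio was formed where both libraries had at most 3. Higher or lower means a ratio of 2 or more either way with a minimum of 50 counts in whichever library was higher. The rounded library totals were 20820678 and 19067462. With 1 library per group no test was made. The calculation was tested on simulated data.

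Named genes are those at least 2-fold apart, the 2 with the highest mean TPM of each class, those near the limit and those at 0 in 1 library with at least 20 counts in the other. Ratios of Kcnab3, Kcnip3, Kcnip4, Kcnj6, Scn1a, Scn3b, Scn7a, Scn9a, Cacna1a, Cacna2d1, Cacnb1 and Cacng8, and the values of Myh11 and Ctu2, were added after values were seen. Counts of Rrad, Gem and Stac2 were added in the same way. Some named genes are counted but not reported here one by one. The channel genes and lists were chosen with earlier results of these data known. Chromosomes came from RefSeq GRCm38.p6, in which all 131 genes were found, and promoters from RefSeq for 100 of them. Alternatives covered scaling (among them DESeq2 1.42.0 size factors), count minimums, the fold limit, TPM, rounding and chromosome background.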

Additional observations from a re-analysis of the deposited data

How the results depend on the processing

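No paired analysis was possible because each group had 1 library, and for the same reason no library could be left out. The number of channel genes at least 2-fold higher, 22 as reported, was 34 with a minimum of 20 counts, 12 with a minimum of 200 and 49 with no minimum. The number lower, 6 as reported, was 16 with no minimum. With the other settings tried the counts ranged from 15 to 25 higher and from 4 to 7 lower, and were 22 and 6 under each scaling, with TPM and without rounding. Requiring the near bound of the counting interval to pass 2-fold left 20 higher and 4 lower. The median log2 ratio stayed above 0 in all 9 settings, from 0.66 (at least 100 counts summed) to 1.27 (TPM). Scaling to total counts lowered every log2 ratio by 0.11, and the other scalings shifted them by less. In 39 recalculations of class medians under other scalings, only that of the potassium channel accessory subunits changed sign, from -0.03 as reported to 0.02 with upper-quartile scaling. Since a scaling shifts every log2 ratio by the same amount, only a median this near 0 could change sign. Class medians were not recalculated with the other settings. Of 246 recalculated ratios of named genes, 14 left their counting interval and none of those at least 2-fold apart changed sign. Depth limits the scarce members most: 87 of 131 genes stayed under 50 counts.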
